A study of Mus musculus with 4 samples.

Results

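Long regions of convergent transcription were followed from unsynchronized to early G1 B cells. Such regions carry nascent RNA from both DNA strands over the same bases. Joining the 4 deposited region lists wherever calls overlapped by 1 base or more gave 20175 merged regions. Of these, 607 (3.01%) were long regions held in both states. They had a call in both unsynchronized libraries and in at least 1 early G1 library, and a called length, summed over the pieces of a library, that averaged over 5000 bp in the unsynchronized libraries. Another 6331 regions met the same rule on calls but were no longer than that, and are the shorter regions below. The long regions were thus selected on measured values, namely unsynchronized called length and the presence of calls. Their lengths and pieces are described without a test, since an early G1 library can call less than the choosing libraries even if nothing differed. The early G1 signal values did not enter the rule, but a call in early G1 did. The signal test took only regions called in all 4 libraries, so its results hold only given those calls.

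The cells were primary splenic B cells of Fucci-EGFP+ C57BL/6 mice, whose reporter marks cell cycle phases, and all had been activated in culture with Rp105, IL4 and LPS. There were 2 unsynchronized libraries, titled total cell control and also called the controls here, and 2 early G1 libraries. For early G1, nocodazole, a microtubule poison that halts cells in mitosis, was present at 100 ng/ml from 42 hours after isolation for 6 hours. Sorted EGFP+ cells then went back into culture for 1.5 hours and were sorted again, although the deposited name of early G1 replicate 1 reads 1 h. The labels record these steps for early G1, so that drug, sorting and phase cannot be told apart. They do not say whether replicates came from different mice, and any p-value measures only the spread between these libraries.

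Global run-on sequencing (GRO-seq) lets polymerases that are engaged on DNA extend their transcripts in isolated nuclei, and it reads the labelled RNA with its strand. Antisense transcripts that start within a gene can meet the sense transcripts of that gene, and enhancers within genes are a known source of them. In activated B cells, places where both strands are transcribed have been linked to off-target activity of AID, the deaminase that mutates antibody genes. A long region is therefore a stretch of many kilobases over which both strands were being read.

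The lists held 10708 to 12768 regions a library and covered 15551 to 22305 kb. Their signal is named a geometric mean by the authors. Its values behaved as the geometric mean of sense and antisense reads divided by region length and a library constant. If that constant scales as in RPKM, there were 14720000 and 13480000 reads behind the unsynchronized lists and 8170000 and 9520000 behind those of early G1. By this inference the early G1 libraries were the smaller ones, and the part of that difference in the called lengths was not tested. Regions are given by mm9 position, counted from 1. No gene annotation or sequence of that build was used here, so genes and bases are not named.

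The long regions made up a large part of all called bases, which the rule on unsynchronized length favours. They held 28.5% and 30.3% of the called bases of unsynchronized replicates 1 and 2, from 6.18% and 6.99% of the deposited regions. In early G1 they held 21.1% of the called bases of replicate 1 and 28.4% of those of replicate 2. Early G1 replicate 2 thus came close to unsynchronized replicate 1 in this share, while early G1 replicate 1 lay below the other 3 libraries. The unsynchronized lengths chose the regions, so nothing is read from the lower early G1 shares. In kilobases, the unsynchronized libraries called 6356 and 5625 kb in the long regions and the early G1 libraries 4056 and 4410 kb. These totals ranked as the inferred library sizes did, but the called bases of the whole lists did not. The whole lists covered 22304.6 and 18561.5 kb in the controls and 19246.3 and 15551 kb in early G1.

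Merged long regions were 5087 to 38996 bp wide, with a median of 11014 bp. They lay on all autosomes and on chromosome X, and 1 was mitochondrial. On chromosome 11 there were 71, which was 11.3% of the 628 regions held in both states there, against 8.75% over the genome. Chromosomes 4 and 9 had similar shares, at 11.2% and 11.1%. At the other end, 5 of 159 held regions on chromosome X were long (3.14%) and 15 of 280 on chromosome 13 (5.36%). Of the 607, 151 (24.9%) lay within 100 kb of another long region. In the unsynchronized state most were unbroken, since 385 consisted of a single piece in both libraries.

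All long regions had a call in early G1 by the rule, but that call was often partial or came from 1 library. Calls in all 4 libraries were found for 434 (71.5%), close to the share among the shorter regions (71.7%). Early G1 replicate 1 alone held 77 and replicate 2 alone held 96. Median called lengths were 9071 and 8167 bp in the controls and 6464 and 6562 bp in early G1, counting a missing call as 0. Relative to its own unsynchronized mean, the median long region had an early G1 length of 0.713, with quartiles of 0.432 and 1.03. The shorter regions had a median of 0.928. Among the 434 long regions with calls in all 4 libraries it was also 0.928, and among the 173 that lacked 1 early G1 call it was 0.407. This ratio averages the early G1 libraries, and bases called only in early G1 count in it. In total, these 434 regions had 4476 and 4099 kb called in the controls and 3581 and 3620 kb in early G1.

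The long regions fell into 4 classes by their early G1 length. In 214 (35.3%) both early G1 libraries kept at least 0.8 times the unsynchronized length. Another 48 (7.91%) were shortened to below 0.5 times in both. A call was absent from 1 early G1 library in 173 (28.5%), and the other 172 (28.3%) lay in between or differed between the libraries. Among shorter regions, 45.3% were kept, 1.37% shortened and 28.3% absent from 1 library. The kept regions were not the longest, with a median unsynchronized length of 8274 bp against 9545 bp for the shortened ones. They did have more signal, with medians of 19.8 and 28.9 in the 2 unsynchronized libraries against 9.83 and 16.4.

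**Figure D1:**
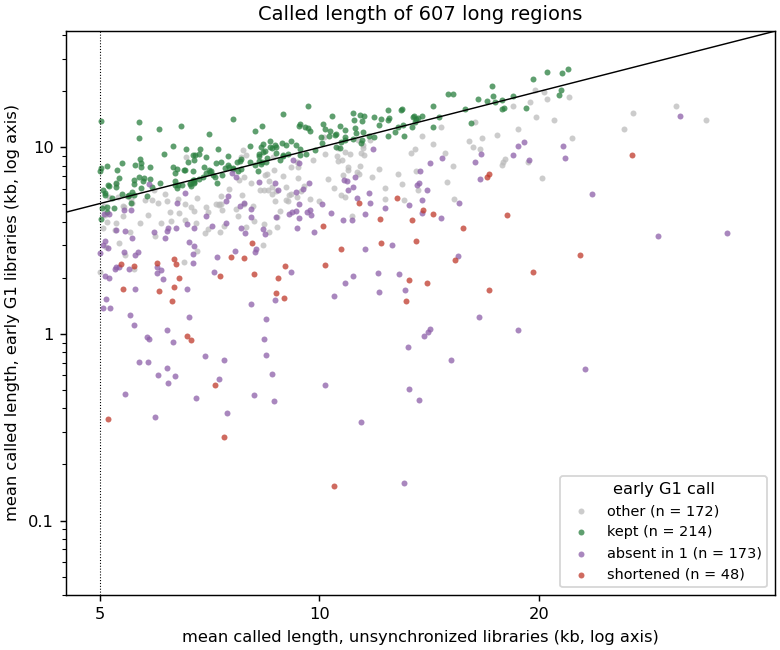
Mean called length of each of the 607 long regions in the unsynchronized (x axis) and early G1 libraries (y axis), both in kb on log axes. Points are regions coloured by class, the solid line marks equal length and the dotted line the limit of 5000 bp. By the class limits the 214 kept regions lie near or above the line of equal length and the 48 shortened regions below it. Most of the 173 regions absent from 1 library lie below it.

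In 221 long regions (36.4%) both early G1 libraries called less than both unsynchronized libraries, and in 79 (13.0%) both called more. Over all 6938 regions held in both states the shares were 23.4% shorter and 12.9% longer. The rule used the unsynchronized lengths, so nothing is read from the first share. Early G1 replicates also differed more from each other than the unsynchronized replicates did. In the 434 regions called in all 4 libraries, the longer of the 2 early G1 calls was a median 1.33 times the shorter, against 1.13 times in unsynchronized cells. The 2 calls lay within 1.25 times of each other in 195 regions for early G1 and in 286 for unsynchronized cells. The choice by mean unsynchronized length favours agreement in the latter.

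The longest of all was chr11:62108292-62147287, with 37506 and 34716 bp in unsynchronized replicates 1 and 2. Early G1 replicate 1 called 6968 bp of it and replicate 2 none. Its signal was low in every library, at 9.96 and 11.8 in the controls and 5.75 in early G1. Next, chr11:86017208-86051949 spanned 33949 and 33812 bp in unsynchronized cells. In early G1 it was broken into 3 pieces of 20249 bp in replicate 1 and reduced to 1 piece of 7919 bp in replicate 2. Both early G1 libraries were short here, but their calls covered partly different stretches. The signal over what they called, at 9.86 and 9.93, was near the 10.2 and 11.9 of the unsynchronized libraries.

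Replicates of early G1 disagreed outright at several of the longest regions. At chr4:83095123-83127474 the unsynchronized calls were 32349 and 30085 bp, and early G1 replicate 2 held 29602 bp while replicate 1 had no call. At chr5:9108821-9143707, unsynchronized calls of 32314 and 29277 bp faced 3861 bp in early G1 replicate 1 and 29579 bp in replicate 2. The short call of replicate 1 lay at one end, outside the stretch that replicate 2 called. The reverse held at chr7:108419744-108450598, where early G1 replicate 1 called 30369 bp and replicate 2 only 182 bp, against 30855 and 22943 bp in the controls. A length averaged over the early G1 libraries describes none of these 3 regions well.

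**Figure D2:**
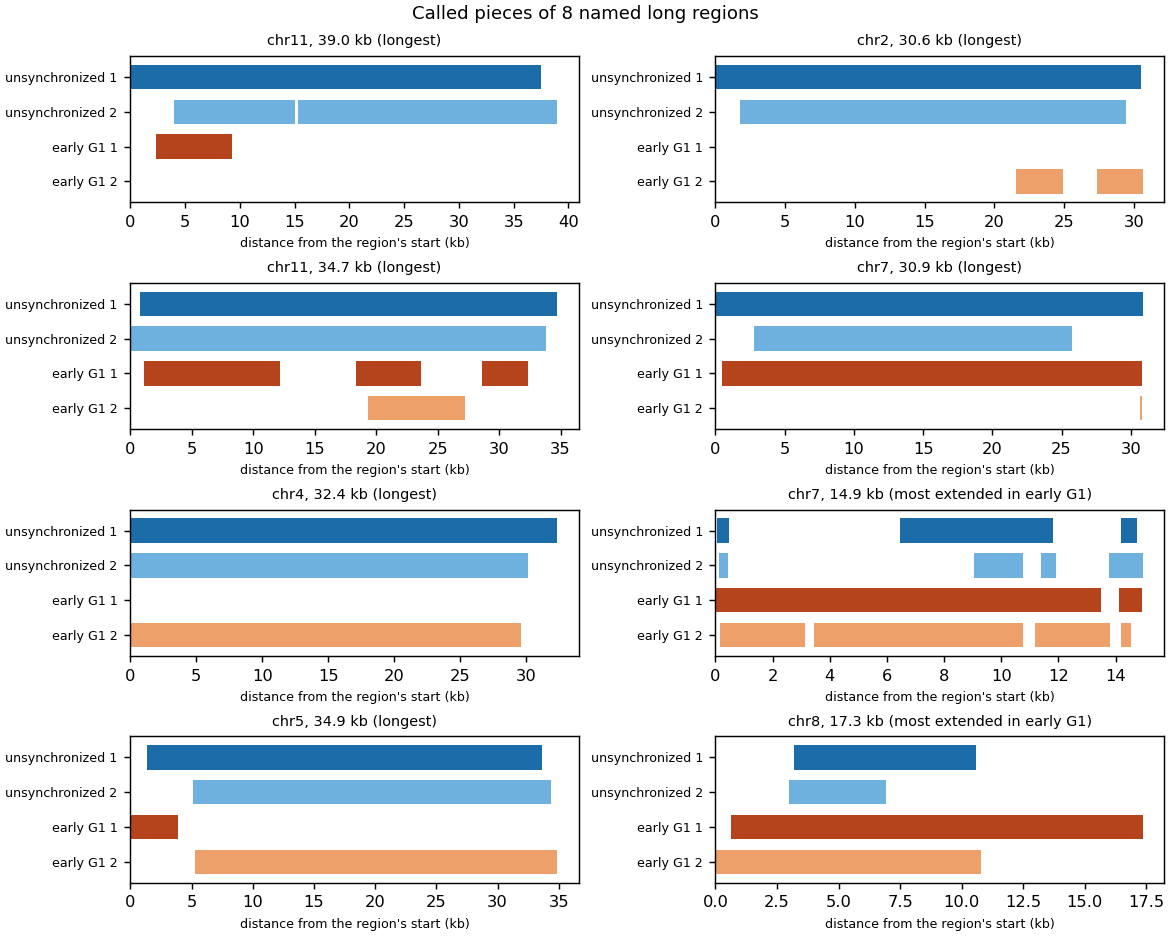
Called pieces of the 6 longest regions and of the 2 most extended in early G1, drawn to scale as distance in kb from the start of the merged region, with 1 row per library. Bars are called pieces. In the longest regions the unsynchronized bars run mostly end to end and the early G1 bars are partial, absent or, in 1 library at a time, as long as in the controls.

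Where both early G1 libraries agreed among the longest, they agreed on a short call. At chr10:62463842-62486671 the calls were 22741 and 22673 bp in unsynchronized cells and 2999 and 2274 bp, each in 2 pieces, in early G1. At chr10:29049901-29081898 they were 31559 and 22013 bp against 10078 bp in 2 pieces and 8253 bp in 4 pieces. At chr11:51398238-51420424, 22178 and 22181 bp faced 12230 and 10231 bp. The unsynchronized replicates had nearly the same length in the first and the last of these, and both early G1 libraries lay far below them.

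The other 4 of the 12 longest followed the same lines. The region chr2:3362969-3393603 had 30542 and 27659 bp in unsynchronized cells, and no call and 6704 bp in early G1. At chr13:45004040-45031077 the lengths were 27038 and 20181 bp, then none and 11215 bp. At chr10:53316595-53340836 they were 23979 and 22155 bp, then 1299 bp and none. Finally, chr11:20121395-20149473 went from 28079 and 24129 bp to 7769 and 17349 bp. Not one of the 12 longest had an early G1 mean as long as its unsynchronized mean, with ratios of 0.0282 to 0.568.

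By length class, the median ratio of early G1 to unsynchronized length was 0.779 for the 381 regions of 5 to 10 kb and 0.658 for the 202 of 10 to 20 kb. It was 0.494 for the 24 regions over 20 kb. Shares of kept regions were 37.3%, 33.2% and 20.8% in these classes. A region chosen for an extreme length is longer in the libraries that chose it, and more so the further the threshold is moved.

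For lengths that did not enter the length limit, regions over 5000 bp were chosen in 1 library and measured in the other 3. Only regions with a call in at least 1 of the other 3 were kept. The lists of all libraries were merged first, so calls of the other 3 could join separate pieces of the choosing library. Choosing in unsynchronized replicate 1 gave 828 regions. The median length relative to it was 0.860 in unsynchronized replicate 2 and 0.620 and 0.586 in early G1 replicates 1 and 2. Choosing in unsynchronized replicate 2 gave 662 regions, with 0.997 in unsynchronized replicate 1 and 0.707 and 0.763 in early G1. Both early G1 libraries thus lay below the held-out unsynchronized library in either choice. The share of regions below 0.5 times was 25.6% in the held-out unsynchronized library against 45.0% and 45.9% in early G1 for the first choice. For the second it was 13.9% against 44.3% and 40.0%.

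The choice was also turned round. Regions over 5000 bp in early G1 replicate 1 (571) had medians of 0.912 and 0.829 in the unsynchronized libraries and 0.799 in early G1 replicate 2. Those chosen in early G1 replicate 2 (515) had medians of 0.951 and 0.882 in the unsynchronized libraries and 0.868 in early G1 replicate 1. Long early G1 regions were thus called at slightly more of their length in the unsynchronized libraries than in the other early G1 library. Early G1 over unsynchronized length was 0.701 and 0.738 when chosen in unsynchronized cells and 0.920 and 0.948 when chosen in early G1.

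Length was held where signal was high. The 607 long regions were split by their mean unsynchronized signal into low (up to 14.5), middle and high (from 22.1) classes of 202, 202 and 203. The median length ratio was 0.431 in the low class, 0.688 in the middle and 0.993 in the high class. Kept regions made up 10.9%, 35.1% and 59.6% of these classes, shortened ones 13.4%, 8.42% and 1.97%, and those absent from 1 library 45.0%, 25.7% and 14.8%. Their median unsynchronized lengths were 8677, 9059 and 8026 bp. Across the long regions, signal and length ratio had a Spearman rho of 0.503 (n = 607), and unsynchronized length and length ratio one of -0.146. The values of a region come from the same reads, and these are descriptions.

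The same split was made in the held-out choice. Of regions chosen in unsynchronized replicate 2, the low class had a median length of 0.996 in unsynchronized replicate 1 and of 0.218 and 0.293 in early G1. In the high class all 3 other libraries lay between 0.993 and 1.01. Of regions chosen in unsynchronized replicate 1, the low class had 0.677 in the other unsynchronized library and 0.140 and 0.182 in early G1. Its high class had 0.930, 0.996 and 0.977. The missing early G1 length therefore lay mainly in the weaker long regions, and the median region of the high class had its full length in both early G1 libraries.

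Weak regions chosen in early G1 were also poorly held by the other early G1 library. The low class chosen in early G1 replicate 1 had 0.630 in early G1 replicate 2. It had 1.02 and 0.907 in the unsynchronized libraries. The low class chosen in early G1 replicate 2 had 0.602 in early G1 replicate 1 and 1.06 and 0.939 in the unsynchronized libraries. The other classes chosen in early G1 replicate 1 had 0.782 to 0.895 in the unsynchronized libraries, and 0.731 (middle) and 0.907 (high) in early G1 replicate 2. The part of depth in this was not tested.

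**Figure D3:**
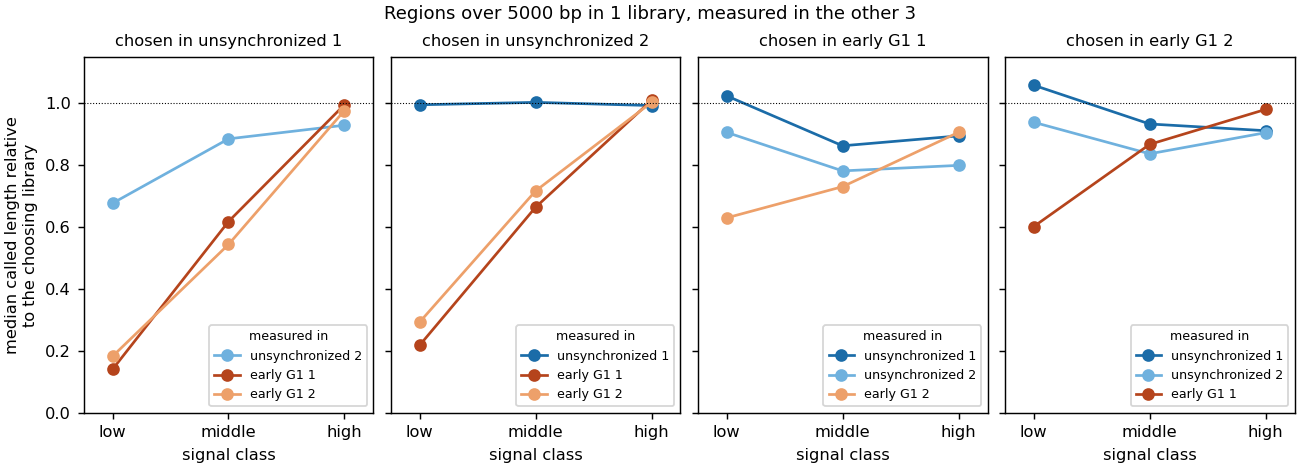
Median called length, relative to the choosing library, of regions over 5000 bp in 1 library and measured in the other 3. Each panel is a choosing library, the x axis gives 3 classes of its signal, low to high, and each line is a measuring library. In the 2 left panels the early G1 lines rise from 0.140 to 0.293 in the low class to 0.977 to 1.01 in the high class, while the held-out unsynchronized library stays at 0.677 or above.

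Beside these lengths stand the reads behind them. Shortened regions had a median of 145 and 221 reads per kb in unsynchronized replicates 1 and 2, and kept regions 292 and 390, where reads means the recovered geometric mean of both strands. Long regions with a call in early G1 had a median of 166 and 247 reads per kb there. In unsynchronized cells all long regions had 203 and 282. The groups thus overlapped in reads per kb. The scaled signal had medians of 13.8 and 21.0 in the controls and 20.3 and 26.0 in early G1.

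Which bases were lost was examined next. The 2 unsynchronized libraries both called 5039 kb of the long regions. Of these bases early G1 replicate 1 called 59.2% and replicate 2 called 64.7%, both called 43.0%, and neither called 19.2%. The early G1 libraries together agreed on 2707 kb, of which 5.77% were called in neither unsynchronized library. Since the regions were chosen for long unsynchronized calls, nothing is read from this share. By shared over combined bases, the unsynchronized libraries overlapped by 72.6% and the early G1 libraries by 47.0%. The 4 pairs across the groups overlapped by 49.9% to 53.8%. The rule asked for a call in both unsynchronized libraries but in only 1 of early G1, and 173 regions lacked an early G1 call, which by itself raises the first overlap and lowers the second.

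The missing bases were not only at the edges. Among the 434 regions called in all 4 libraries, the span of the unsynchronized replicate 1 call was divided from edge to centre. Unsynchronized replicate 2 called 67.5% of the bases in the outermost 5% at either end and 89.0% at the centre. Early G1 replicate 1 called 66.7% at the edges and 72.2% at the centre, and replicate 2 59.4% and 72.7%. Against unsynchronized replicate 2 the edges were called at 73.2% by unsynchronized replicate 1 and at 65.1% and 61.0% in early G1, and the centre at 93.7%, 73.6% and 72.8%. By either reference the early G1 libraries lay further below the unsynchronized one at the centre than at the edges. Both unsynchronized lengths chose these regions, so the gap between the groups is a description here.

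**Figure D4:**
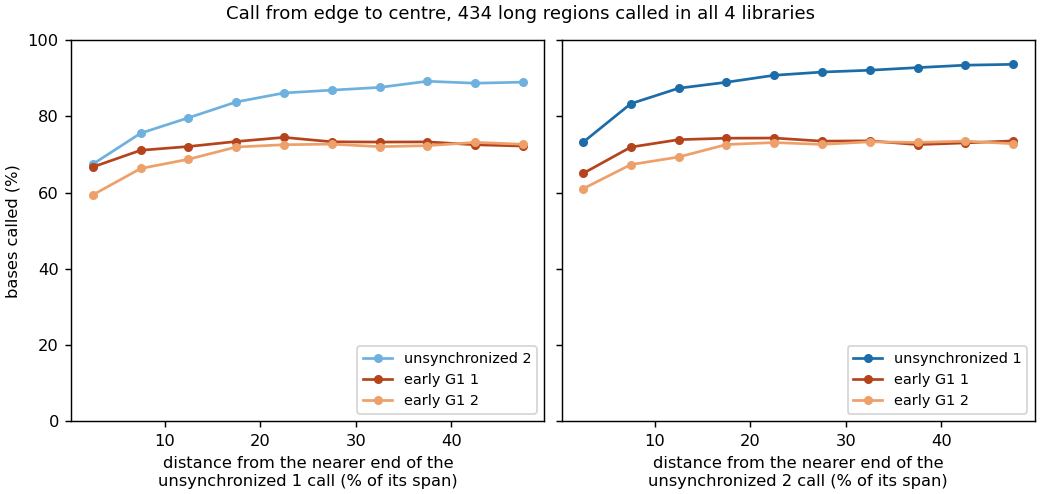
Share of bases called (y axis, %) by distance from the nearer end of the call of unsynchronized replicate 1 (left) or 2 (right), in % of its span, over 434 regions. Each line is another library, averaged over regions. The unsynchronized line climbs to 89.0% or 93.7% at the centre, and both early G1 lines level off between 72.2% and 73.6%.

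Most missing length was beyond the ends of what remained rather than in gaps. Over all long regions where the library had an overlapping call, and relative to unsynchronized replicate 1, 85.4% and 82.7% of the bases lost in early G1 replicates 1 and 2 lay beyond the first or last called base, and the rest in gaps. For unsynchronized replicate 2 the share was 82.4%. At least 1000 bp was missing at the ends in 229 and 250 regions for early G1 and in 231 for unsynchronized replicate 2. Relative to unsynchronized replicate 2 the counts were 185 and 214 for early G1 and 121 for unsynchronized replicate 1, so whether early G1 had more such regions depended on the reference. By the first reference at least 0.8 of that loss was at one end alone in 93.4% and 80.8% of the early G1 cases and in 77.5% of the unsynchronized ones. By the second the shares were 90.8% and 82.7% against 92.6%. Loss from one end was therefore the usual form in all 4 libraries. By the first reference the end of lower coordinate had the greater loss in 108 of 229 and 128 of 250 regions.

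The 48 shortened regions held a median of 2337 and 2501 bp in early G1. Their remaining call tended to sit towards an end in replicate 1. The mean position of its called bases lay nearer to an end of the unsynchronized span than to the centre in 39 regions. It lay nearer to the centre in 7. In replicate 2 the counts were 28 and 18. In each library 2 more lay outside the unsynchronized span. Leaving these 2 out, the signal over the called remnant was a median 1.11 and 1.39 times that of the whole unsynchronized call. This covers only bases that were still called, and the scaling sets its level, as given with the signal test.

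Among the 434 regions called in all 4 libraries, the lowest length ratio was at chr4:118098101-118109040, with 10603 and 10343 bp in the controls and 185 and 123 bp in early G1. At chr1:173201950-173210236 the lengths were 7093 and 7711 bp against 439 and 119 bp. The recovered geometric means of reads there were 657 and 974 against 8 and 0. At chr14:47380231-47397448 the lengths were 17207 and 16916 bp against 2021 and 1424 bp. In these 3 regions both unsynchronized libraries agreed closely and both early G1 libraries lay far below. Of all 607, only chr1:62757706-62783288, named after its values were seen, had a lower ratio than the first of these (0.0122 against 0.0147). It had 25583 and 514 bp in the controls and no call and 318 bp in early G1.

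The longest of this group, chr1:165869080-165890101, went from 21022 and 18254 bp to 966 and 3325 bp. At the other 2 of the 6 lowest ratios among these 434 regions the unsynchronized libraries did not agree. At chr8:109562642-109572749 they called 288 and 9972 bp, and early G1 351 and 345 bp. Unsynchronized replicate 1 was like early G1 there, in signal too, at 99.3 against 103 and 98.5, with 25.3 in unsynchronized replicate 2. At chr11:22871947-22882317 they called 10357 and 4041 bp, and early G1 875 and 193 bp.

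Other long regions were called longer in early G1. In 171 (28.2%) the early G1 mean length was above the unsynchronized mean, against 38.4% of the shorter regions. The highest ratio, 2.74, was at chr7:13609572-13624517, with 6324 and 3734 bp in the controls and 14300 and 13284 bp in early G1. There the unsynchronized libraries held 3 and 4 separate pieces, and the 2 and 4 early G1 pieces covered most of the space between these. At chr8:32261266-32278612, each library had a single piece, of 7387 and 3930 bp in the controls and 16729 and 10790 bp in early G1. At chr17:56752737-56766328 the lengths were 5705 and 6343 bp in the controls and 12102 and 12959 bp in early G1. In all 3 both early G1 libraries were longer than both unsynchronized ones.

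Signal did not follow length in all of these. At chr9:15110693-15126961 the lengths were 5523 and 7391 bp in the controls and 10760 and 15193 bp in early G1, while the signals were 195 and 183 in the controls and 95.4 and 81.3 in early G1, a difference that did not pass the test below. At chr7:4745820-4759698 lengths of 4160 and 7173 bp faced 13102 and 9500 bp, with signals of 19.7 and 32.8 in the controls and 41.1 and 44.2 in early G1. The last of the 6, chr3:54525403-54540410, had 12961 and 2291 bp in the controls and 13497 and 15008 bp in early G1. Its ratio of 1.87 rests on unsynchronized replicate 2, since replicate 1 was about as long as early G1.

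The mean number of pieces per long region did not separate the groups once the same regions were compared, though other measures did. In the 434 called in all 4 libraries there were 1.33 and 1.45 pieces per region in the controls and 1.44 and 1.47 in early G1, and the groups overlapped. Over whatever regions each library called, 607 in the controls and 511 and 530 in early G1, there were 1.28 and 1.38 against 1.42 and 1.42. By that count the mean was 0.0918 pieces higher in early G1, with a replicate SD of 0.0503, and 0.0415 higher without unsynchronized replicate 1. More than 1 piece was found in 22.4% and 28.7% of the called long regions in unsynchronized cells and in 33.1% and 33.0% in early G1. Per 10 kb called there were 1.22 and 1.49 pieces against 1.78 and 1.71. In the 434 called in all 4 libraries the groups did not overlap by these measures either. More than 1 piece was found there in 27.0% and 33.2% of regions against 34.6% and 36.6%. Per 10 kb called these 434 had 1.29 and 1.53 pieces against 1.74 and 1.77. The shorter regions had 5.20% and 6.57% in several pieces, and 5.24% and 4.94% in early G1. Median piece length in the long regions was 7026 and 5978 bp in the controls and 4389 and 4216 bp in early G1.

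Of the 434, 27 (6.22%) had more pieces in both early G1 libraries than in either unsynchronized one, and 21 (4.84%) had fewer. Over the 4972 regions called in all 4 libraries the shares were 0.845% and 1.19%. The most pieces were seen at chr8:37226926-37251360, with 4 and 9 in the controls and 3 and 5 in early G1. Next was chr8:129368604-129382193, with 4 and 5 against 3 and 4. The region chr9:107198873-107215263 had 2 and 2 pieces in the controls and 5 and 4 in early G1. At chr19:46402657-46415424 and chr5:76626739-76646504, early G1 replicate 1 had 5 and 4 pieces and replicate 2 had 2 and 1. Gaps between pieces of a library were mostly short, with medians of 517 and 748 bp in the controls and 588 and 1170 bp in early G1.

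Unsynchronized pieces were also set against the early G1 calls. The rule demanded an early G1 call somewhere in the region, which keeps the number of pieces without one low. Of 775 pieces in unsynchronized replicate 1, 521 were overlapped by both early G1 libraries, 241 by 1 and 13 by neither. Of 836 in replicate 2 the counts were 537, 257 and 42. The signal of these pieces followed the same order, with medians of 16.3, 10.9 and 7.63 in replicate 1 and of 23.4, 15.2 and 9.34 in replicate 2.

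The signal over the called bases was then tested. The 4972 merged regions with a call in each library were fitted together on log2(signal + 1) with limma, with Benjamini-Hochberg adjustment over all of them and a threshold of 0.05. Of the long regions 434 entered this fit, and the 173 without a call in 1 early G1 library did not. In early G1 2 long regions were higher (0.461%) and 1 lower (0.230%). Over all regions fitted, 0.302% were called higher and 0.0402% lower. These 3 calls are too few to set the long regions apart. Without unsynchronized replicate 1 or 2 there were 1 and 0 calls, and without early G1 replicate 1 or 2 there were 9 and 10. The last 2 counts, 2.07% and 2.30% of the long regions, stood against 1.37% and 2.39% of all regions, and the first 2 against 0.382% and 0.0201%.

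Over the 434 regions the median log2 change was 0.29, early G1 minus unsynchronized, against 0.41 over all regions fitted. Their median therefore lay 0.12 below that of all regions. It was above 0 in 324 (74.7%), against 78.0% of all. At an unadjusted p under 0.05 by limma, 24 long regions were higher (5.53%) and 7 lower (1.61%), where 13.9% and 0.945% of all regions were. Both early G1 libraries lay above both unsynchronized ones in 130 (30.0%) and below them in 18 (4.15%). The shares over all regions were 43.9% and 4.67%. A smaller share of long regions than of all regions thus lay above the unsynchronized libraries.

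The sign of the median change depended on the scaling. With each library divided by its median the long regions had a median log2 change of -0.15 and all regions of -0.03. With unscaled reads per kb the medians were -0.37 and -0.24. Median scaling makes the library medians equal by construction, and unscaled reads keep the difference in inferred library size. At an unadjusted p under 0.05 by limma, 9 long regions were higher (2.07%) and 24 lower (5.53%) with median scaling, where 4.26% and 5.73% of all regions were. With unscaled reads 4 were higher (0.922%) and 40 lower (9.22%), against 1.99% and 9.35% of all. Relative to all regions the median was -0.12 and -0.13 in these scalings. It was -0.34 without early G1 replicate 2 and turned to 0.04 without early G1 replicate 1, so the lower position of long regions rests on early G1 replicate 1. The median itself was 0.0033 without unsynchronized replicate 1, 0.53 without unsynchronized replicate 2 and 0.11 without early G1 replicate 2. In 81 long regions the longest of the 4 calls was at most 1.25 times the shortest, and their median was 0.30.

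**Figure D5:**
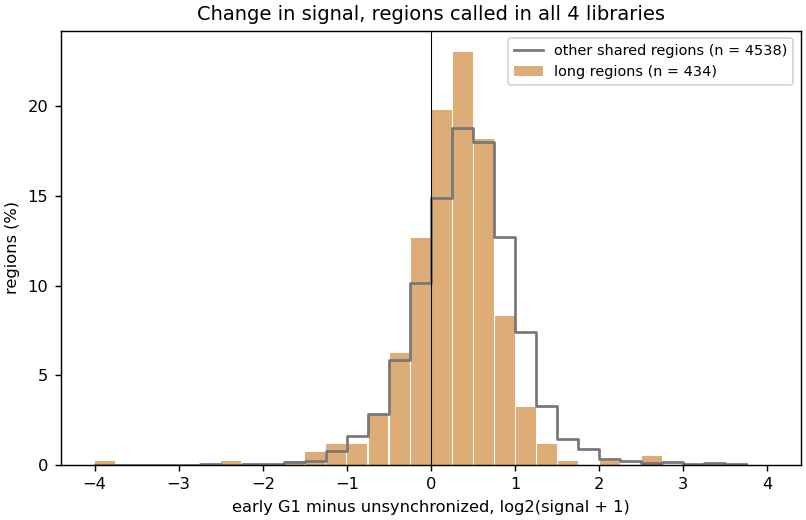
Distribution of the change in signal, early G1 minus unsynchronized on the log2(signal + 1) scale (x axis), as % of regions (y axis) in steps of 0.25. Bars are the 434 long regions and the line the 4538 other regions called in all 4 libraries. Both peak above 0, the long regions with a median of 0.29 and fewer regions at 0.75 or more.

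Of the 3 long regions past the test, 1 was mitochondrial. The region chrM:11187-16292 lies on a genome that is transcribed from both strands over its whole length. Its signal of 454 and 494 in the controls stood against 2442 and 3490 in early G1. The difference of 2.62 on the log2 scale passed the test (SE 0.47, adjusted p = 0.036 by limma). Its called length of 5084 and 5005 bp against 4487 and 5004 bp barely differed, with a ratio of 0.941. It only just met the length rule, and the mitochondria left in each preparation of nuclei were not measured. The call was lost in 8 of 13 other settings, with limma adjusted p-values of 0.00085 to 0.35 over them, and 0.16 or 0.33 without unsynchronized replicate 1 or 2.

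The region chr4:133640636-133651032 had signals of 16.0 and 5.60 in the controls and 93.9 and 45.5 in early G1. The groups did not overlap, and the log2 difference was 2.65 (SE 0.52, limma adjusted p = 0.045), or 2.23 beyond the median of all regions. It was called over 10397 and 1589 bp in unsynchronized and over 2377 and 2418 bp in early G1 cells, and so the values do not cover the same bases. Only unsynchronized replicate 1 made it a long region. Over 13 other settings its log2 difference ran from 1.47 to 3.33, with limma adjusted p-values of 2.9e-05 to 0.52, and 6 lost the call, among them the one without unsynchronized replicate 2 (limma adjusted p = 0.33).

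The decrease was at chr4:118098101-118109040, the region of lowest length ratio among the 434. Its signals were 16.9 and 26.1 in the controls and 1.32 and 0 in early G1 (log2 difference -3.85, SE 0.76, limma adjusted p = 0.045). The early G1 values rest on recovered geometric means of 2 and 0 reads over calls of 185 and 123 bp. A geometric mean is 0 when either strand has no reads, whatever the other holds. The size of the difference is therefore set by the pseudocount. It was -5.81 with a pseudocount of 0.1 and -1.55 with one of 10. In 8 of 12 other settings the call was lost, with limma adjusted p-values of 1.4e-06 to 0.42 over them, and 0.42 or 0.39 without unsynchronized replicate 1 or 2.

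Ranked by mean signal over the libraries that called them, 5 nuclear long regions stood highest, and 2 of them were kept. At chr13:63893668-63901426 the calls were 7718 and 7759 bp in the controls and 7401 and 7589 bp in early G1, with signals of 127 and 136 against 162 and 171. At chr11:11586223-11597845 they were 10603 and 10810 bp against 10589 and 10716 bp, with signals of 92.3 and 129 against 171 and 180. At chr16:84703815-84713383 they were 8763 and 9529 bp against 6614 and 9114 bp, with signals of 128 and 181 against 260 and 263. In each of these the early G1 signals lay above both unsynchronized ones, as they did in 43.9% of all regions fitted. Their log2 differences of 0.34, 0.68 and 0.78 did not pass the test (limma adjusted p = 0.70, 0.44 and 0.40). Beyond the median of all regions these differences were -0.077, 0.27 and 0.36.

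At the other 2 of this group the lengths differed more between libraries. At chr6:129130632-129137474 the lengths were 5877 and 6406 bp against 6835 and 4362 bp, and the signals of 99.6 and 189 overlapped with 151 and 172. At chr16:23110544-23117248 the lengths were 5134 and 5622 bp against 1866 and 6705 bp, with signals of 186 and 173 against 259 and 249. There the early G1 signals were close to each other over very different called lengths.

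Just above the limit of 5000 bp were chr4:133523396-133529099 with a mean unsynchronized length of 5004 bp, chr19:41993453-42002138 with 5009.5 bp and chr11:75436238-75444383 with 5010.0 bp. Their early G1 to unsynchronized length ratios were 0.544, 1.48 and 0.427. Just below it were chr11:60961741-60974338 with 4990.5 bp, chr7:26074618-26082940 with 4985.5 bp and chr1:54965922-54972355 with 4972.5 bp. Their ratios were 1.77, 0.514 and 0.255. Each set of 3 held ratios both above and below 1.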

How the data were processed

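Each library came as 1 list of convergent regions, per the file headers. Per the submitters' processing notes, BWA (0.7.12) and HOMER were used with the mm9 build. The criteria of a call are not given in the sources used here. The deposited signal per region is the authors' geometric mean. It is not a count, so it was tested as log2(signal + 1), which understates changes of weak regions. Reads were recovered from it, since the square of signal times length was a whole multiple of 1 constant for 100% of values tested (multiples below 5000, tolerance 0.1). A signal over several pieces was weighted by length.

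Fits used limma 3.58.1 in R 4.3.3 (lmFit, eBayes with trend, two-sided) on all 4 libraries. On simulated data with 4972 regions it called 63 of 100 changed 4-fold, 1 of 100 changed 2-fold and 5 falsely. The simulation took its spread from the fit, added only increases and had no general shift. In the data the median log2 change of all regions fitted was 0.41. Groups and replicate numbers came from the titles. The members, lists and thresholds were chosen with earlier results of these data known. Named regions are the 12 longest, the 6 of highest mean signal over the libraries that call them, those past the test, the 6 lowest and highest length ratios among regions called in all 4 libraries, the 6 with most pieces in any 1 library (ties by length) and the 3 on each side of the length limit. Overlaps with genes, and sequences, were not analysed here.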

Additional observations from a re-analysis of the deposited data

How the results depend on the processing

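The ratio of early G1 to unsynchronized length was below 1 in every setting run, though choosing regions by unsynchronized length favours such a ratio. Its median of 0.713 became 0.633 for regions over 10000 bp, 0.831 for those over 3000 bp, 0.773 with merging within 1 kb and 0.815 without regions under the 25th percentile of signal. It was 0.928 with a call in both early G1 libraries, 0.783 by span and 0.617 over bases called in both unsynchronized libraries, the last added after seeing the data. Leaving out unsynchronized replicate 1 or 2 gave 0.790 and 0.697, and leaving out early G1 replicate 1 or 2 gave 0.866 and 0.829. With 1 early G1 library left, its length alone was used, still 0 where it had no call. The held-out ratios of 0.701 and 0.738 were 0.563 and 0.622 over 10000 bp, and the first was 0.770 with merging within 1 kb. Chosen in early G1 they were 0.920 and 0.948. The number of long regions was 226 over 10000 bp and 1095 over 3000 bp, and the excess of pieces 0.169 and 0.0227, or 0.0380 with merging within 1 kb. Below 0.4 times, 31 regions were shortened.

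The 3 signal calls were 0 with median-scaled libraries, unscaled reads per kb, merging within 1 kb and signal times length, where 33 (7.60%), 44 (10.1%), 50 (8.62%) and 46 (10.6%) long regions had an unadjusted p under 0.05, against 497 of 4972, 11.3%, 14.5% and 12.9% of all regions. By direction, with signal times length 12 long regions were higher (2.76%) and 34 lower (7.83%), against 566 and 73 of all 4972. That measure contains the called length, which chose the long regions, so nothing is read from it. The 3 calls became 1 without the limma trend and 1 among regions of steady length. Leaving out 1 library gave 0 to 10, with the spread taken from the intact group, like which the single library is taken to vary. The median change turned to -0.15 with median-scaled libraries and -0.37 with unscaled reads. With the replicate block there was 1 call. Samples of equal number share only that number, and their deviations correlated at 0.10 over 4972 regions. Precision is limited by 2 libraries a group, the early G1 libraries were smaller by inference, and a stretch without a call has no value there.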
